A study of Mus musculus with 12 samples.

Results

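The retinoid genes described here are 10 genes of vitamin A uptake and metabolism, taken by symbol from the deposited count table of 23284 genes. They are Bcmo1, Isx, Rbp2, Lrat, Retsat, Rdh7, Rdh16, Aldh1a1, Aldh1a2 and Cyp26b1. Each of the 10 was found once under that symbol, and 10 of 10 were among the 15866 genes with enough reads to be tested. RNA of the mouse terminal ileum, the last stretch of the small intestine, was sequenced in 4 groups of 3 mice, with 1 library per mouse. The groups were C57BL/6 wild type mice, mice with the genotype Rag1-/-, and Tcra-/- mice in 2 housing conditions. Rag1 encodes a recombinase needed to assemble antigen receptors, so its loss removes mature T and B cells. Tcra encodes the alpha chain of the T cell receptor, and its loss removes alpha beta T cells while B cells are kept. Per the labels, the co-housed Tcra-/- mice shared a cage with male wild type animals of the same age for 4 to 8 weeks, and the other Tcra-/- mice were housed separately. All groups came from 1 supplier and were kept free of specific pathogens. The housing of the Rag1-/- mice, the number of cages, the ages and whether the sequenced wild type mice were those cage mates are unknown here. A test of housing therefore measures spread among mice, not among cages.

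Vitamin A enters the gut either as retinyl esters or as carotenoids such as beta-carotene, which enterocytes cleave to retinal. Retinal is reduced to retinol, which is held by a cellular binding protein and esterified for export in chylomicrons. A smaller part is oxidised in a pair of steps, from retinol to retinal and from retinal to retinoic acid, the ligand of nuclear receptors that act on epithelium and on lymphocyte homing. Cytochrome P450 enzymes of the Cyp26 family break retinoic acid down.

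The libraries held 37061276 to 50581616 counts each. Levels are in CPM, the gene's count relative to the library's total count after scaling by the trimmed mean of M-values, and differences are log2 fold changes from edgeR's quasi-likelihood test over all 12 libraries. A gene was called when its Benjamini-Hochberg adjusted p over 15866 genes was under 0.01, two-sided, as 1% is the rate that the study's design names. Across genes, log2 CPM correlated at 0.987 to 0.992 between mice of a group and at 0.942 to 0.983 between mice of different groups. Rag1 had 236 reads in the Rag1-/- mice and 0 in the other 9 libraries, so its reads do not check the deletion. Summed B cell markers, at 1.90 to 2.38 CPM in the Rag1-/- mice against 37.7 to 155 CPM in the other groups, did follow that label. Markers of ileal enterocytes, such as the bile acid transporter gene Slc10a2, summed to 4030 to 5728 CPM over the 12 libraries.

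In Rag1-/- mice compared with wild type, the genes of retinol esterification, carotene cleavage and retinol saturation fell, while the 2 retinol dehydrogenases moved in opposite directions. Lrat fell 2.54-fold, Bcmo1 1.89-fold, Retsat 1.32-fold and Rdh7 8.01-fold. Rdh16 rose 7.62-fold, Aldh1a1 1.52-fold and Isx 1.46-fold. Rbp2, Aldh1a2 and Cyp26b1 did not pass the test. In all, 3 of the 10 genes rose and 4 fell, where 9.42% of all genes tested rose and 11.5% fell. Over the 10 genes the median log2 fold change was -0.17, beside -0.02 over all genes, and the median size was 0.57, beside 0.24.

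Co-housed Tcra-/- mice differed from separately housed Tcra-/- mice in the same genes of esterification, cleavage and saturation, and also in Rbp2. Rdh7 was 47.2-fold lower with co-housing, Lrat 4.94-fold, Bcmo1 4.21-fold, Retsat 3.41-fold and Rbp2 2.53-fold. Rdh16 was 3.34-fold higher and Isx 1.25-fold higher. In this comparison 2 of the 10 genes rose and 5 fell, beside 21.1% and 17.7% of all genes tested. The median log2 fold change was -0.90, beside -0.01 over all genes, and the median size was 1.54, beside 0.38. Groups did not overlap for 7 of the 10 genes in the Rag1-/- comparison and 8 in the housing comparison, beside 45.7% and 57.9% of all genes tested. With scaling by library size alone the split was 2 higher and 5 lower in the Rag1-/- comparison and 1 higher and 6 lower in the housing comparison. That scaling moved the median of all genes to -0.19 and -0.12, respectively. As this is bulk tissue, fewer cells of a type and less RNA per cell cannot be told apart in any of these values.

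**Figure D1:**
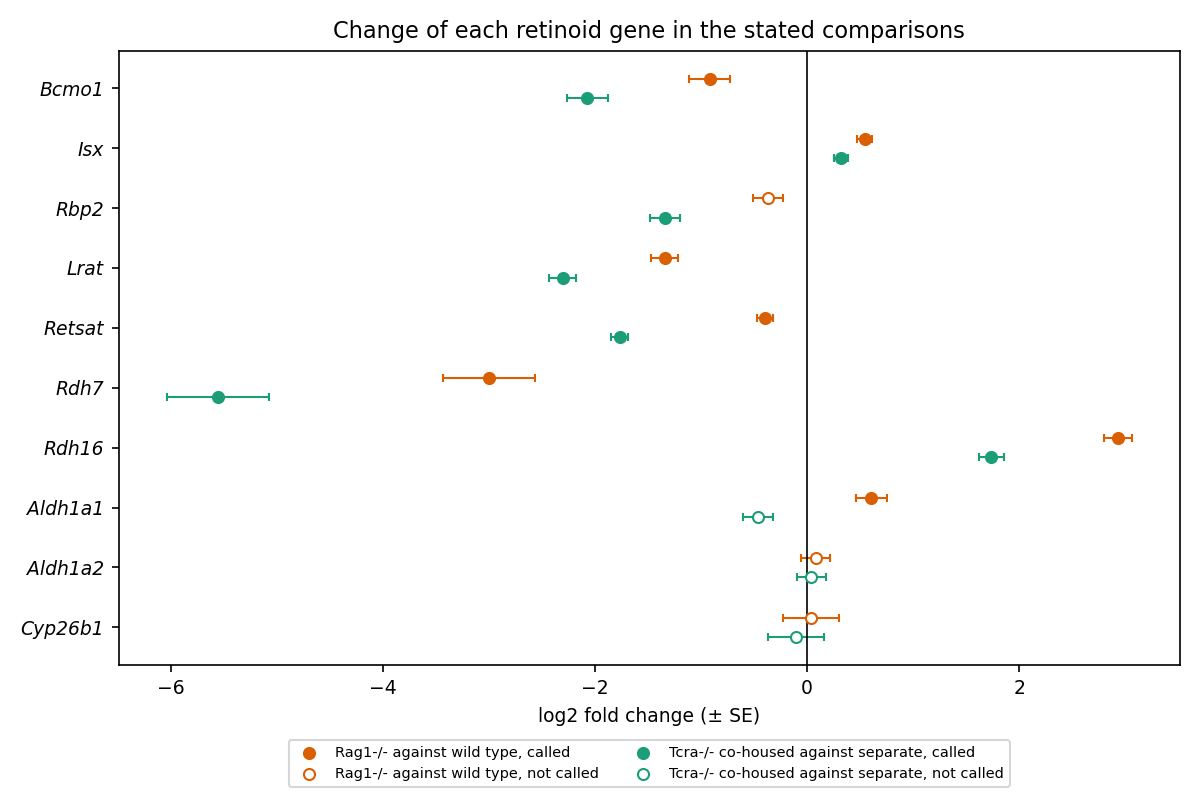
Log2 fold change (x axis, bars ± SE) of the 10 retinoid genes in Rag1-/- against wild type mice and in co-housed against separately housed Tcra-/- mice, 3 mice per group. Filled points were called at an adjusted p under 0.01. Rdh7 lies farthest to the left in both comparisons, at -3.0 and -5.56, and Rdh16 farthest to the right, at 2.93 and 1.74.

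Bcmo1 encodes the beta-carotene oxygenase that splits beta-carotene into retinal (mm9 chromosome 8, 119619765 to 119657620, 12 exons). Its level was 10.1, 7.55 and 6.77 CPM in the wild type mice, 3.43, 3.84 and 5.57 CPM in the Rag1-/- mice, 4.83, 3.25 and 3.86 CPM in the co-housed and 15.8, 16.7 and 17.6 CPM in the separately housed Tcra-/- mice. Every separately housed mouse lay above every other mouse, and the Rag1-/- and co-housed mice overlapped each other below the wild type mice. The log2 fold change was -0.92 (SE 0.19, adjusted p = 0.00163) in Rag1-/- against wild type and -2.07 (SE 0.19, adjusted p = 3.9e-07) in co-housed against separately housed mice. The first of these calls was lost when Rag1-/- replicate 1, Rag1-/- replicate 2 or wild type replicate 1 was left out, with adjusted p = 0.0110, 0.0109 and 0.0117.

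Isx encodes an intestine-specific homeobox factor known to repress Bcmo1 and the carotenoid and lipid receptor gene Scarb1 (mm9 chromosome 8, 77397073 to 77417405, 4 exons). It stood at 160, 182 and 181 CPM in wild type mice, 248, 258 and 255 CPM in Rag1-/- mice, 240, 223 and 239 CPM in co-housed mice and 183, 182 and 199 CPM in separately housed mice. The Rag1-/- mice were highest, the co-housed mice next, and the other groups lower and overlapping. Isx rose by 0.54 on the log2 scale in Rag1-/- mice (SE 0.07, adjusted p = 1.6e-05) and was 0.32 higher with co-housing (SE 0.07, adjusted p = 0.00101). The housing call did not pass with scaling by library size alone, at 0.20 with adjusted p = 0.0129. Isx was higher and Bcmo1 lower in both comparisons, and Scarb1 was not called in either, at -0.20 (adjusted p = 0.471) and 0.18 (adjusted p = 0.451). In separately housed against wild type mice, Bcmo1 was higher by 1.04 (adjusted p = 0.000706) and Isx was not called, at 0.11 (adjusted p = 0.282). Whether Isx acted on Bcmo1 in these mice was not tested.

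Rbp2 encodes the cellular retinol-binding protein of enterocytes, which hands retinol to the esterifying enzyme (mm9 chromosome 9, 98390956 to 98410190, 4 exons). Levels of 229, 275 and 212 CPM in wild type mice compared with 156, 184 and 214 CPM in Rag1-/- mice, 202, 139 and 173 CPM in co-housed mice and 436, 409 and 458 CPM in separately housed mice. The separately housed mice were far above the rest, and the highest Rag1-/- mouse overlapped the lowest wild type mouse. With co-housing Rbp2 fell by 1.34 on the log2 scale (SE 0.14, adjusted p = 6.1e-06). In Rag1-/- mice the change of -0.37 (SE 0.14) did not pass, with adjusted p = 0.0630, and it passed with scaling by library size alone, at -0.54 with adjusted p = 0.00327.

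The start regions of Bcmo1 and Rbp2 are shown because they hold, in the stretch just upstream of the start, copies of the letters bound by nuclear receptors, the class that includes the retinoic acid receptors. Both sequences run from 250 bases before to 50 after the start and come from RefSeq on build GRCm38.p6, which is not the mm9 build of the counts. Bcmo1 is listed there as Bco1 and was matched through its synonym, and all 10 genes had an entry. Capitals mark matches on either strand to the searched motifs.
Bcmo1, chr8:117095615-117095914, plus strand: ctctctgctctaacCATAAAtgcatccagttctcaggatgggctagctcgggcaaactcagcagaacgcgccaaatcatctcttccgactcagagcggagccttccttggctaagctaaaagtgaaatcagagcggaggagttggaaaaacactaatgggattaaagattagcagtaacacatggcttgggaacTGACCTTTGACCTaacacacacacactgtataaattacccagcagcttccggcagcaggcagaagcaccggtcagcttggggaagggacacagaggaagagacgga
Rbp2, chr9:98490287-98490586, plus strand: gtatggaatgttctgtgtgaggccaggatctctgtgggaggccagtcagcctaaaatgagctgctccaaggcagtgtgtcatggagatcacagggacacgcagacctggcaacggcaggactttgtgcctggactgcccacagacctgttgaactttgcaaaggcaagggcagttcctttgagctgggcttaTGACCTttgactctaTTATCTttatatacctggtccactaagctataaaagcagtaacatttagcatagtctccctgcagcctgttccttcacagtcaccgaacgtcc
The Bcmo1 window holds 1 match to AGGTCANAGGTCA, on the minus strand and beginning at position -56, counted from the start site. This match contains 2 copies of the receptor core AGGTCA, at -56 and -49. The 13-base motif was in 13 of 32841 promoters of the same length, or 0.0396%, whereas AGGTCA alone was in 16.3%. Rbp2 has 1 copy of AGGTCA at -58 and 1 copy of AGATAA, the core bound by GATA factors, at -43. AGATAA was in 11.2% of promoters. Bcmo1 also has TTTATG, a core of CDX factors, at -236, which was in 11.9% of promoters. The search also covered AGGTCANNAGGTCA and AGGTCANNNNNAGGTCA (each in 0.00913% of promoters), the STAT motif TTCNNNGAA (8.3%), the HNF4 motif CAAAGTCCA (0.475%) and the HNF1 motif GTTAATNATTAAC (0.00913%). Lrat, Retsat, Isx, Aldh1a2 and Cyp26b1 had no match to any of the searched letters in this window. For Cyp26b1, the bases after the listed start were not found in its own GENCODE M21 transcripts. Aldh1a1 has 2 listed starts, and the one whose following bases occur in its GENCODE M21 transcripts has AGATAA at -32. The other Aldh1a1 start had no match. Such matches describe the letters and not binding.

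Lrat encodes lecithin retinol acyltransferase, which makes retinyl esters for storage and export (mm9 chromosome 3, 82696504 to 82707896, 2 exons). The 3 wild type mice had 30.7, 27.3 and 24.1 CPM, the Rag1-/- mice 12.5, 8.48 and 11.3 CPM, the co-housed mice 10.4, 10.97 and 9.26 CPM and the separately housed mice 47.2, 51.0 and 53.2 CPM. The groups formed 3 levels that did not overlap, with Rag1-/- and co-housed mice together at the lowest. Lrat fell by 1.34 on the log2 scale in Rag1-/- mice (SE 0.13, adjusted p = 8.8e-07) and by 2.31 with co-housing (SE 0.13, adjusted p = 2.5e-09).

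Retsat encodes retinol saturase, which converts retinol to dihydroretinol (mm9 chromosome 6, 72548622 to 72557482, 11 exons). Its level ran 31.4, 33.9 and 29.2 CPM in wild type, 22.7, 24.1 and 25.0 CPM in Rag1-/-, 20.7, 21.4 and 19.2 CPM in co-housed and 67.1, 70.4 and 71.7 CPM in separately housed mice. None of the 4 groups overlapped another. The change was -0.40 in Rag1-/- mice (SE 0.08, adjusted p = 0.000905) and -1.77 with co-housing (SE 0.08, adjusted p = 3.0e-10).

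**Figure D2:**
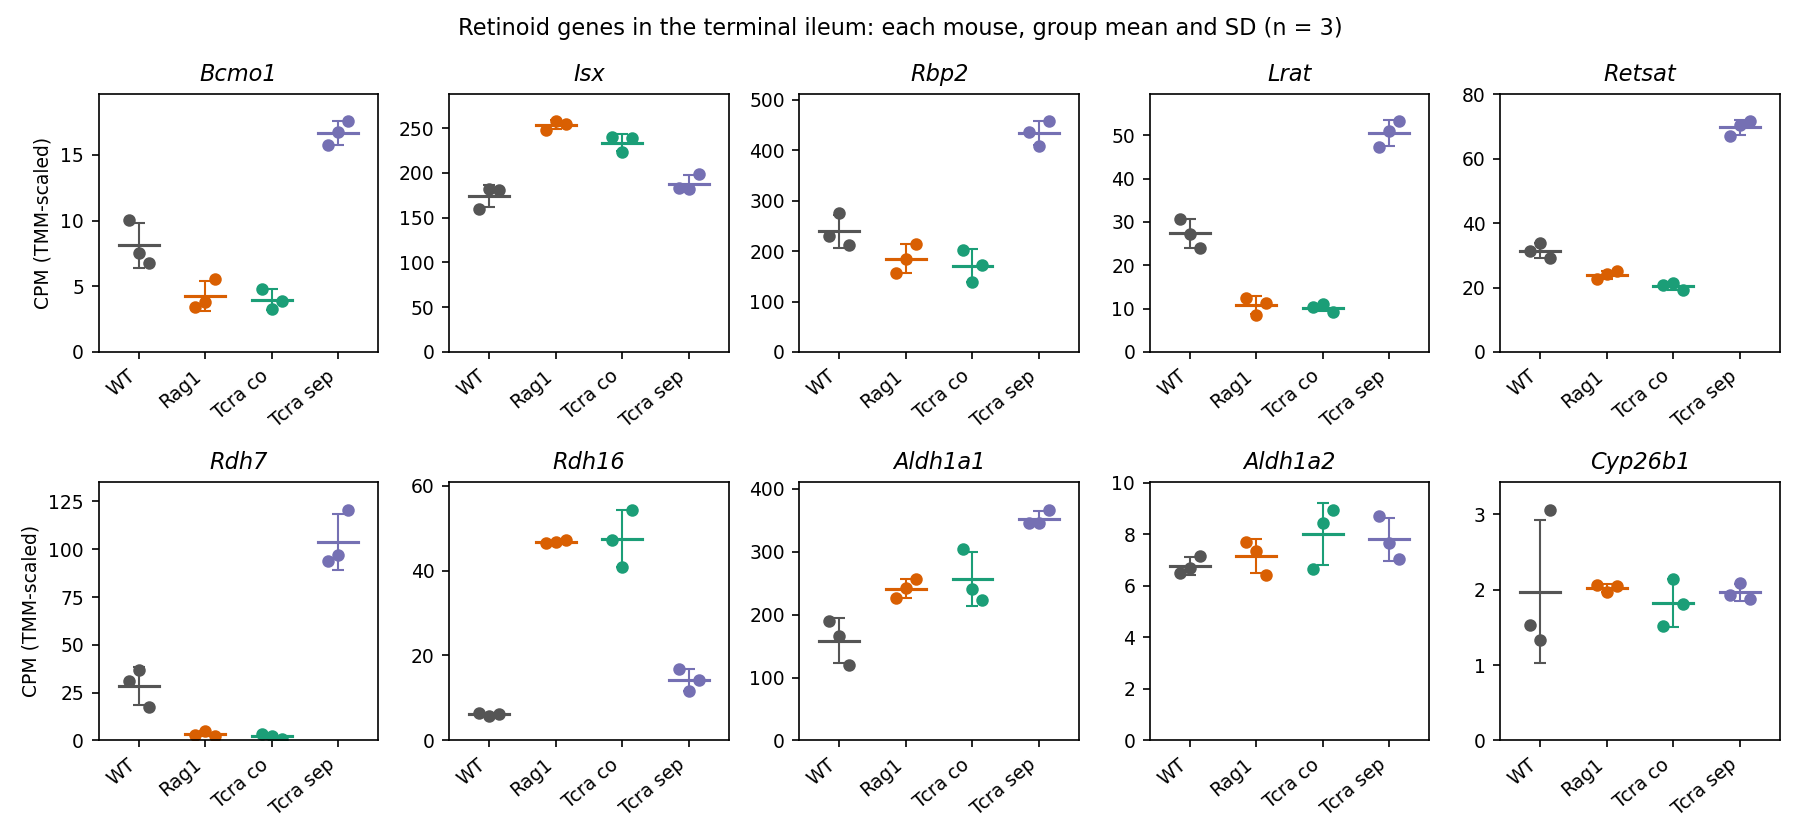
Level of each of the 10 retinoid genes in CPM scaled by the trimmed mean of M-values (y axes from 0, 1 panel per gene) in wild type (WT), Rag1-/- (Rag1), co-housed (Tcra co) and separately housed (Tcra sep) Tcra-/- mice. Points are single mice, and lines and bars the mean and SD of 3 mice. Lrat, at 50.5 ± 3.03 CPM in separately housed mice against 10.2 ± 0.872 CPM with co-housing, shows the order shared with Bcmo1, Rbp2, Retsat and Rdh7, and Rdh16 shows another order.

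Rdh7 and Rdh16 encode short-chain dehydrogenases known to oxidise retinol and some steroids, and they lie near each other on chromosome 10. Rdh7 (mm9 chromosome 10, 127321083 to 127325789, 4 exons) stood at 30.8, 37.0 and 17.5 CPM in wild type mice, 3.11, 5.05 and 2.52 CPM in Rag1-/- mice, 3.31, 2.51 and 0.842 CPM in co-housed mice and 93.6, 97.2 and 121 CPM in separately housed mice. Its lowest value, in co-housed replicate 3, was 34 counts. The Rag1-/- and co-housed mice overlapped each other and lay well below both other groups. Rdh7 fell by 3.0 on the log2 scale in Rag1-/- mice (SE 0.43, adjusted p = 0.000822) and by 5.56 with co-housing (SE 0.48, adjusted p = 1.5e-05). By the size of its change Rdh7 ranked 220 of 15866 genes in the first comparison and 33 in the second.

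Rdh16 (mm9 chromosome 10, 127238209 to 127252895, 4 exons) went the other way. It had 6.43, 5.80 and 6.17 CPM in wild type mice, 46.6, 46.6 and 47.1 CPM in Rag1-/- mice, 47.3, 40.9 and 54.3 CPM in co-housed mice and 16.8, 11.6 and 14.3 CPM in separately housed mice. The wild type mice were lowest, the separately housed mice intermediate and the remaining 6 mice highest, with no overlap between these levels. The increase was 2.93 in Rag1-/- mice (SE 0.13, adjusted p = 6.5e-10) and 1.74 with co-housing (SE 0.12, adjusted p = 1.9e-08).

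Per kilobase of merged exons, Rdh7 exceeded Rdh16 in each wild type mouse, by 9.64, 12.8 and 5.69 times, and in each separately housed mouse, by 11.2, 16.9 and 17.0 times. Rdh16 exceeded Rdh7 in each Rag1-/- mouse, by 7.45, 4.59 and 9.30 times, and in each co-housed mouse, by 7.09, 8.09 and 32.1 times. The more abundant of the 2 transcripts was therefore Rdh7 in 6 mice and Rdh16 in the other 6, divided along group lines. Their summed level was 16.3 to 17.7 CPM per kilobase in Rag1-/-, 14.3 to 17.5 in co-housed, 12.9 to 25.0 in wild type and 63.9 to 80.1 in separately housed mice.

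**Figure D3:**
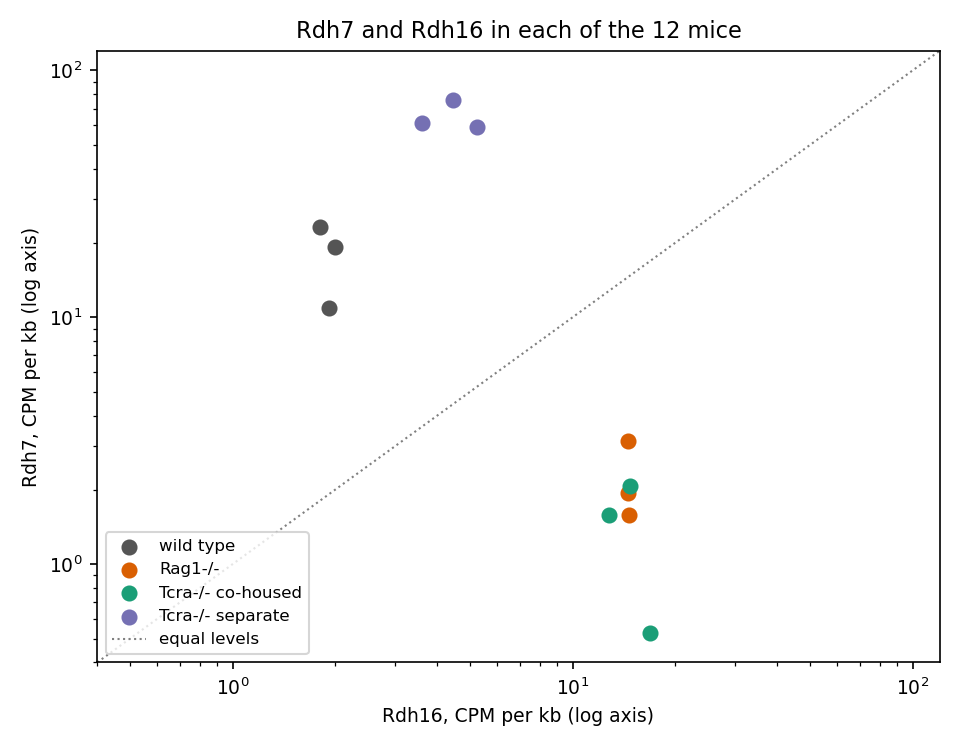
Rdh7 (y axis) against Rdh16 (x axis), both in CPM per kilobase on log axes, 1 point per mouse, coloured by group, with a dotted line at equal levels. The wild type and separately housed Tcra-/- mice lie above the line, with Rdh7 5.69 to 17.0 times Rdh16, and the Rag1-/- and co-housed Tcra-/- mice lie below it.

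The start regions of both dehydrogenase genes are shown because these transcripts moved in opposite directions. RefSeq lists 2 starts for Rdh7, and the start printed here is the one whose following bases occur in a GENCODE M21 transcript of Rdh7. Both sequences are written 5′ to 3′ in the direction of the gene, on GRCm38.p6, and capitals again mark motif matches.
Rdh7, chr10:127888684-127888983, minus strand: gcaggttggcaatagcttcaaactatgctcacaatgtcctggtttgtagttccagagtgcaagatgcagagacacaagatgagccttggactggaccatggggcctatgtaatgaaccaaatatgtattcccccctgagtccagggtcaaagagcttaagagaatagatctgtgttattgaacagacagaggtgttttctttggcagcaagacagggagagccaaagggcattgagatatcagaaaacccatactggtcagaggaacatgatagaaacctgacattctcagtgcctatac
Rdh16, chr10:127800903-127801202, plus strand: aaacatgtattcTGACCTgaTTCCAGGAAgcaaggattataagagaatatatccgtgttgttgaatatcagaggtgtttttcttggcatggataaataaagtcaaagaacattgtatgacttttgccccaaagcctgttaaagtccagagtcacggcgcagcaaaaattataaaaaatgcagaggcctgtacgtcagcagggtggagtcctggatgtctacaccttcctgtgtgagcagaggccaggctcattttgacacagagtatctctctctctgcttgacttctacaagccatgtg
The Rdh7 window has no match to the searched letters. The window at the other listed Rdh7 start, chr10:127889198-127889497, has AGGTCA at -105 and TTTATG at -208. Rdh16 has AGGTCA at -238 and TTCNNNGAA, the STAT motif, at -230.

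Genes between and beside this pair were compared, over an interval of 50000 bases to each side that was chosen after the values were seen. Of the neighbouring dehydrogenase genes, Rdh1 changed by 0.49 in Rag1-/- mice (adjusted p = 0.0694) and by -0.20 with co-housing (adjusted p = 0.419), and neither passed the test. Rdh9 changed by 0.20 in Rag1-/- mice (adjusted p = 0.307) and was lower with co-housing by a log2 fold change of -0.55 (adjusted p = 0.00446). The pseudogene Rdh18-ps, at 0.21 and 0.16 (adjusted p = 0.240 and 0.301), was not called. BC089597, which lies beside Rdh7 and was singled out after its values were seen, had 62, 59 and 27 counts in wild type mice, 14, 3 and 8 in Rag1-/- mice, 4, 8 and 7 in co-housed mice and 444, 393 and 443 in separately housed mice. Its order of groups was that of Rdh7, and its log2 fold change was -2.51 in Rag1-/- mice (SE 0.40, adjusted p = 0.000154) and -5.88 with co-housing (SE 0.37, adjusted p = 6.8e-09). Rdh19, with 50 counts over the 12 libraries, and Sdr9c7 had too few reads to test. No exonic bases of the 10 retinoid genes are shared with another gene of the table. Identical stretches do exist, since 1.5% of the 50-base windows of Rdh7 transcripts also occur in Rdh16, 9.57% in Rdh1 and 10.9% in Rdh18-ps. Of the windows of Rdh18-ps, 39.6% also occur in Rdh16 and 19.2% in Rdh7, and of those of Rdh9, 10.9% occur in Rdh16. No such count was obtained for BC089597, so the stretches it may share with Rdh7 were not measured. How reads that fit more than 1 gene were treated is unknown here, so parts of these counts could be assigned to a relative, above all for Rdh18-ps.

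**Figure D4:**
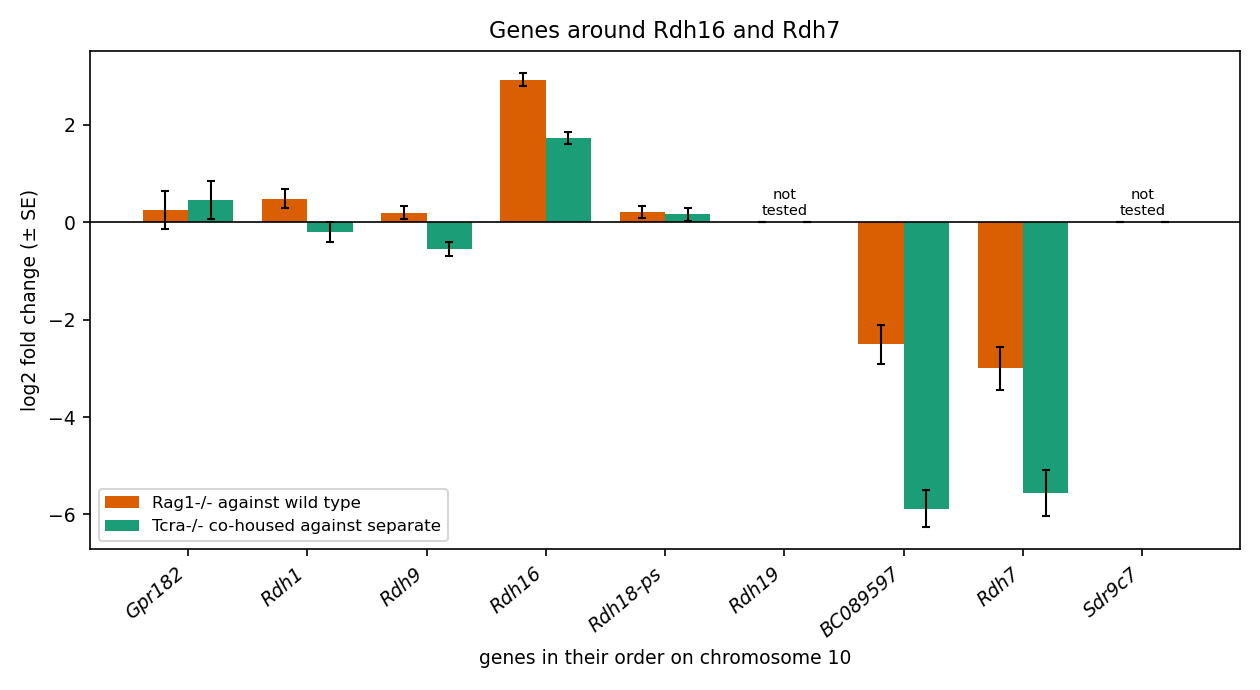
Log2 fold change (y axis, bars ± SE) of genes in their order along the chromosome 10 interval that holds Rdh16 and Rdh7, in the 2 comparisons of 3 against 3 mice. Rdh16 stands at 2.93 and 1.74, and BC089597 and Rdh7 reach -5.88 and -5.56 with co-housing. The other tested genes lie between -0.55 and 0.49.

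Aldh1a1 encodes a retinal dehydrogenase that produces retinoic acid (mm9 chromosome 19, 20676472 to 20717952, 13 exons). Levels were 190, 165 and 120 CPM in wild type mice, 226, 242 and 256 CPM in Rag1-/- mice, 304, 241 and 223 CPM in co-housed mice and 346, 346 and 367 CPM in separately housed mice. Every knockout mouse was above every wild type mouse, and the separately housed mice were highest. Aldh1a1 rose by 0.60 in Rag1-/- mice (SE 0.15, adjusted p = 0.00664). That call was not kept with library size alone (adjusted p = 0.0263), with no filter on low counts (0.0103), with the 2 groups fitted alone (0.0173) or without any single Rag1-/- mouse or wild type replicate 2 (0.0130 to 0.0249). The difference of -0.46 with co-housing (SE 0.15) did not pass, with adjusted p = 0.0175, although the groups did not overlap. It passed by DESeq2 (adjusted p = 0.00301), with library size alone (0.00376), with the 2 groups fitted alone (0.00439) and without co-housed replicate 1 (0.00337).

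Aldh1a2, a retinal dehydrogenase that intestinal dendritic and stromal cells are known to use, showed no such separation (mm9 chromosome 9, 71063596 to 71144050, 14 exons). It had 6.50, 6.69 and 7.15 CPM in wild type mice, 7.72, 7.37 and 6.42 CPM in Rag1-/- mice, 6.65, 8.44 and 8.96 CPM in co-housed mice and 8.71, 7.69 and 7.04 CPM in separately housed mice. All 4 groups overlapped. The 95% interval of the log2 fold change was -0.21 to 0.37 in Rag1-/- mice and -0.25 to 0.33 with co-housing. The dendritic cell markers summed to 39.2 to 55.6 CPM in wild type, 25.1 to 32.0 in Rag1-/-, 33.7 to 51.4 in co-housed and 17.0 to 17.9 in separately housed mice. Of these 8 markers, Itgae and Ccr7 were called lower in Rag1-/- mice and 0 higher, beside 11.5% and 9.42% of all genes. Itgae had means of 25.2 CPM in wild type and 8.48 in Rag1-/- mice, and Itgax 13.5 and 13.0. With co-housing 5 were called higher and 0 lower, beside 21.1% and 17.7% of all genes. Fibroblast markers summed to 351 to 651 CPM over the 12 libraries. The part of these cells in the level of Aldh1a2 was not tested.

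Cyp26b1, which encodes a hydroxylase that inactivates retinoic acid, was the least abundant of the 10 genes (mm9 chromosome 6, 84521408 to 84543902, 7 exons). Its level was 1.53, 1.34 and 3.06 CPM in wild type mice, 2.06, 1.97 and 2.05 CPM in Rag1-/- mice, 1.51, 2.15 and 1.81 CPM in co-housed mice and 1.93, 2.10 and 1.88 CPM in separately housed mice. Wild type replicate 3 was the highest value, and the groups overlapped. The 95% interval ran from -0.53 to 0.60 in Rag1-/- mice and from -0.67 to 0.46 with co-housing. Changes anywhere within these ranges are compatible with the data. The related Cyp26a1 and Cyp26c1, with 29 and 13 reads over all libraries, were under the filter.

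Levels can be compared between genes only per kilobase of merged exons. In wild type mice Rbp2 was the most abundant of the 10 transcripts, at 355 CPM per kilobase, followed by Isx at 97.3 and Aldh1a1 at 78.1. Rdh7 at 17.8, Retsat at 16.3, Lrat at 5.11, Bcmo1 at 3.21, Aldh1a2 at 2.99, Rdh16 at 1.91 and Cyp26b1 at 0.408 followed. Neighbours in this order overlapped over the 3 mice for Isx with Aldh1a1, Rdh7 with Retsat, and Bcmo1 with Aldh1a2. Rbp2 made up 61.3% ± 2.0 (SD, n = 3) of the summed level of the 10 genes in wild type and 61.5% ± 0.865 in separately housed mice, but 47.8% ± 3.10 in Rag1-/- and 46.5% ± 3.24 in co-housed mice. Isx made up 17.0% ± 2.35, 9.98% ± 0.160, 24.9% ± 1.96 and 24.1% ± 2.19 in the same order of groups. The level of Isx itself was not lower in separately housed mice, at 105 CPM per kilobase beside 97.3 in wild type. That of Rbp2, the largest part of the sum, was 646 beside 355. Rdh16 rose from 0.334% ± 0.0487 in wild type to 2.57% ± 0.226 of the sum in Rag1-/- mice, where Rdh7 made up 0.394% ± 0.150.

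The 2 comparisons share no mice, so the difference between them could be tested directly as an interaction. It was called for 6 of the 10 genes, all with a higher log2 fold change in the Rag1-/- comparison than in the housing comparison, beside 4.61% of all genes tested in that direction. In the other direction 0 were called by edgeR, beside 7.42% of all genes, with 0 at an unadjusted p under 0.05 and 0 by DESeq2. For genes with a negative change in both comparisons, this means a larger fall with co-housing. The difference was 0.97 for Rbp2 (SE 0.20, adjusted p = 0.00406), whose change in Rag1-/- mice was not called, and 0.96 for Lrat (SE 0.18, adjusted p = 0.00110). It was 1.37 for Retsat (SE 0.11, adjusted p = 2.3e-07) and 1.15 for Bcmo1 (SE 0.27, adjusted p = 0.00622). The interaction is also the sum of Rag1-/- minus co-housed and separately housed minus wild type. These 2 parts were 0.11 and 0.86 for Rbp2 and 0.08 and 0.88 for Lrat. They were 0.23 and 1.15 for Retsat and 0.12 and 1.04 for Bcmo1. Rdh16 had the larger rise in the Rag1-/- comparison, by 1.19 (SE 0.17, adjusted p = 0.000118), and Aldh1a1 differed by 1.07 (SE 0.21, adjusted p = 0.00259). The difference of 2.56 for Rdh7 (SE 0.63) did not pass, with adjusted p = 0.0207, and it passed with DESeq2, with adjusted p = 0.00169. Isx differed by 0.22 (adjusted p = 0.118). Leaving out separately housed replicate 3 reduced the 6 calls to 3.

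Separately housed Tcra-/- mice were themselves above wild type mice for most of these genes. In that comparison 7 of the 10 genes were higher, beside 6.06% of all genes tested, and 0 were lower, beside 7.70%, with 0 at an unadjusted p under 0.05 in edgeR and 0 by DESeq2. Retsat was 2.21-fold higher (adjusted p = 9.9e-08), Rdh16 2.32-fold (7.9e-06), Lrat 1.85-fold (7.9e-05), Aldh1a1 2.22-fold (0.000118), Bcmo1 2.05-fold (0.000706), Rbp2 1.82-fold (0.000787) and Rdh7 3.65-fold (0.00770). The Rdh7 call did not pass when any 1 of the 6 mice was left out, with adjusted p = 0.0140 to 0.0291. Isx, Aldh1a2 and Cyp26b1 were not called, with log2 fold changes of 0.11, 0.20 and -0.01. The groups did not overlap for 7 of the 10 genes, beside 40.7% of all genes.

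Co-housed Tcra-/- mice, compared with the same wild type mice, had Rdh16 7.74-fold higher (adjusted p = 5.4e-10), Aldh1a1 1.61-fold higher (0.00326) and Isx 1.34-fold higher (0.000228). They had Rdh7 12.9-fold lower (0.000449), Lrat 2.68-fold lower (1.0e-06), Bcmo1 2.05-fold lower (0.000854) and Retsat 1.54-fold lower (2.3e-05). These 3 higher and 4 lower genes of 10 stand beside 9.34% and 9.19% of all genes, and the groups did not overlap for 8 of 10, beside 41.7%. The Aldh1a1 call did not pass with the 2 groups fitted alone (adjusted p = 0.0256), without co-housed replicate 1 (0.0106) or without wild type replicate 2 (0.0128). Rbp2, at -0.48 with adjusted p = 0.0223, was not called, and it passed by DESeq2 (0.00260), with library size alone (0.00176) and without co-housed replicate 1 (0.00617). The comparisons of Rag1-/- and of co-housed mice share the wild type mice, so their values are given side by side and not as 2 independent results.

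The comparison of Rag1-/- with co-housed Tcra-/- mice gave no call among the 10 genes. By edgeR 0 of 10 were called between these groups, beside 2.89% of all genes tested (0.340% higher and 2.55% lower in Rag1-/- mice), with 1 at an unadjusted p under 0.05 and 0 by DESeq2. That gene was Retsat, 0.23 higher in Rag1-/- mice with an interval of 0.06 to 0.39 (adjusted p = 0.114), and groups did not overlap for Retsat and Isx, 2 of 10 genes beside 22.7%. The 95% intervals were -0.27 to 0.22 for Rdh16, -0.20 to 0.35 for Lrat, -0.03 to 0.26 for Isx, -0.31 to 0.54 for Bcmo1, -0.20 to 0.41 for Rbp2 and -0.40 to 0.23 for Aldh1a1. For Rdh7 the interval of -0.47 to 1.85 was wider than that of any other of the 10 genes. Against separately housed Tcra-/- mice, the Rag1-/- mice had 2 of the 10 genes higher and 6 lower, beside 18.0% and 18.1% of all genes (36.1% in either direction). Groups did not overlap for 8 of the 10, beside 60.1%. Rdh7 was 29.3-fold lower there (adjusted p = 2.9e-05), and Aldh1a1, at -0.55 with adjusted p = 0.00742, did not pass when any 1 of the 6 mice was left out.

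The genes most like each of the 10 over the 12 libraries were ranked among 12248 genes by the root mean square difference of centred log2 CPM, for the 7 genes whose group means spanned more than 1 on that scale. Nearest to Rdh7, which spanned 5.71, were Slc5a4b (0.384), Cyp2d26 (0.568) and Slc5a4a (0.672). Nearest to Rdh16 were Mfsd2a (0.346), Reg3a (0.364) and Acadl (0.424). Fam53b (0.137), Lipa (0.138) and Chka (0.150) were nearest to Rbp2, and Trdmt1 (0.162), Agphd1 (0.167) and Tbc1d24 (0.187) to Lrat. Insr (0.141), Osbpl1a (0.149) and Ppara (0.152) were nearest to Retsat, and Fmo5 (0.190), Slc7a15 (0.196) and Cndp1 (0.206) to Bcmo1. Golt1a (0.175), D130043K22Rik (0.202) and Ddx3y (0.222) were nearest to Aldh1a1. Among the 10 genes themselves the closest pair was Rbp2 and Retsat, at 0.215, and Lrat and Bcmo1 differed by 0.293.

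Of 70 other genes listed for retinoid handling, 58 could be tested. In Rag1-/- mice 15 were called, 7 higher and 8 lower, which is 25.9% beside 20.9% of all genes. With co-housing 26 were called, 7 higher and 19 lower, which is 44.8% beside 38.8% of all genes. These shares were near the background, and are no result about the list as a whole. With library size alone the split in Rag1-/- mice was 5 higher and 15 lower. DESeq2 called 31 in the housing comparison, and 20 to 27 were called there when 1 mouse was left out.

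Among genes of uptake and ester hydrolysis, Cd36, a transporter of fatty acids, stood at 27.7 to 33.4 CPM in wild type, 9.10 to 11.5 in Rag1-/-, 11.6 to 13.1 in co-housed and 35.4 to 42.2 in separately housed mice. Cd36 fell by 1.57 in Rag1-/- mice (adjusted p = 4.5e-08) and by 1.65 with co-housing (adjusted p = 1.2e-08). Plb1, a brush border phospholipase with retinyl ester hydrolase activity, fell by 1.09 (adjusted p = 0.000838) and by 2.05 (adjusted p = 4.0e-06). In both genes, as in Lrat, the separately housed mice were highest, the wild type mice next and the other groups lowest.

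Among further oxidoreductases, Dhrs9, which encodes a retinol dehydrogenase, rose by 2.25 in Rag1-/- mice (adjusted p = 9.9e-07) and by 1.89 with co-housing (adjusted p = 2.9e-06). The alcohol dehydrogenase gene Adh4 fell in both, with log2 fold changes of -2.43 (adjusted p = 6.4e-06) and -2.88 (adjusted p = 6.5e-07). Adh1 and the retinal reductase gene Dhrs3 fell with co-housing, by 1.70 and 1.31 (adjusted p = 9.7e-08 and 6.1e-07), and were not called in Rag1-/- mice, at -0.24 and -0.41 (adjusted p = 0.179 and 0.0177). Of the 16 tested genes of this kind, 2 rose and 1 fell in Rag1-/- mice, beside 9.42% and 11.5% of all genes, which is near the background. With co-housing 2 rose and 7 fell, beside 21.1% and 17.7% of all genes. Aldh1a7, a near relative of Aldh1a1, was at 5.28 to 9.74 CPM in wild type, 29.9 to 34.8 in Rag1-/-, 26.0 to 38.8 in co-housed and 46.0 to 55.0 in separately housed mice. It rose by 2.09 in Rag1-/- mice (adjusted p = 1.2e-05) and was lower with co-housing, by a log2 fold change of -0.73 (adjusted p = 0.00699). As 7.49% of the 50-base windows of Aldh1a7 also occur in Aldh1a1, some reads may be shared between the 2 genes.

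Of 7 receptor genes, Ppard, a nuclear receptor for fatty acids that is also reported to bind retinoic acid, rose by 0.76 and 0.77 in the 2 comparisons (adjusted p = 8.7e-06 and 3.3e-06). Rara and Rxra, which encode retinoic acid and retinoid X receptors, fell with co-housing by 0.78 and 0.54 (adjusted p = 1.5e-05 and 9.9e-06). In Rag1-/- mice they changed by -0.14 and -0.07 (adjusted p = 0.351 and 0.490). Of 6 genes reported to respond to retinoic acid, Tgm2, which encodes transglutaminase 2, rose by 1.37 and 2.44 (adjusted p = 1.1e-07 and 3.0e-10). The gut-homing genes Ccr9 and Itga4 fell by 2.35 and 1.79 in Rag1-/- mice (adjusted p = 0.000306 and 4.6e-07), and with co-housing Itga4 rose by 1.03 (adjusted p = 4.4e-05) while Ccr9 changed by 1.26 (adjusted p = 0.0111). These last 2 are genes of lymphocytes, and the summed T cell markers were 64.2 to 102 CPM in wild type, 6.20 to 8.37 in Rag1-/-, 22.5 to 49.1 in co-housed and 9.74 to 10.2 in separately housed mice. The part of T cells or of other cells in the changes of Ccr9 and Itga4 was not tested. Stra6, the receptor for the plasma retinol carrier, had 315 reads in wild type, 24 in Rag1-/-, 238 in co-housed and 57 in separately housed mice, an order of groups that none of the 10 genes had. It fell by 3.66 in Rag1-/- mice (adjusted p = 2.2e-06) and rose by 2.23 with co-housing (adjusted p = 4.6e-05).

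**Figure D5:**
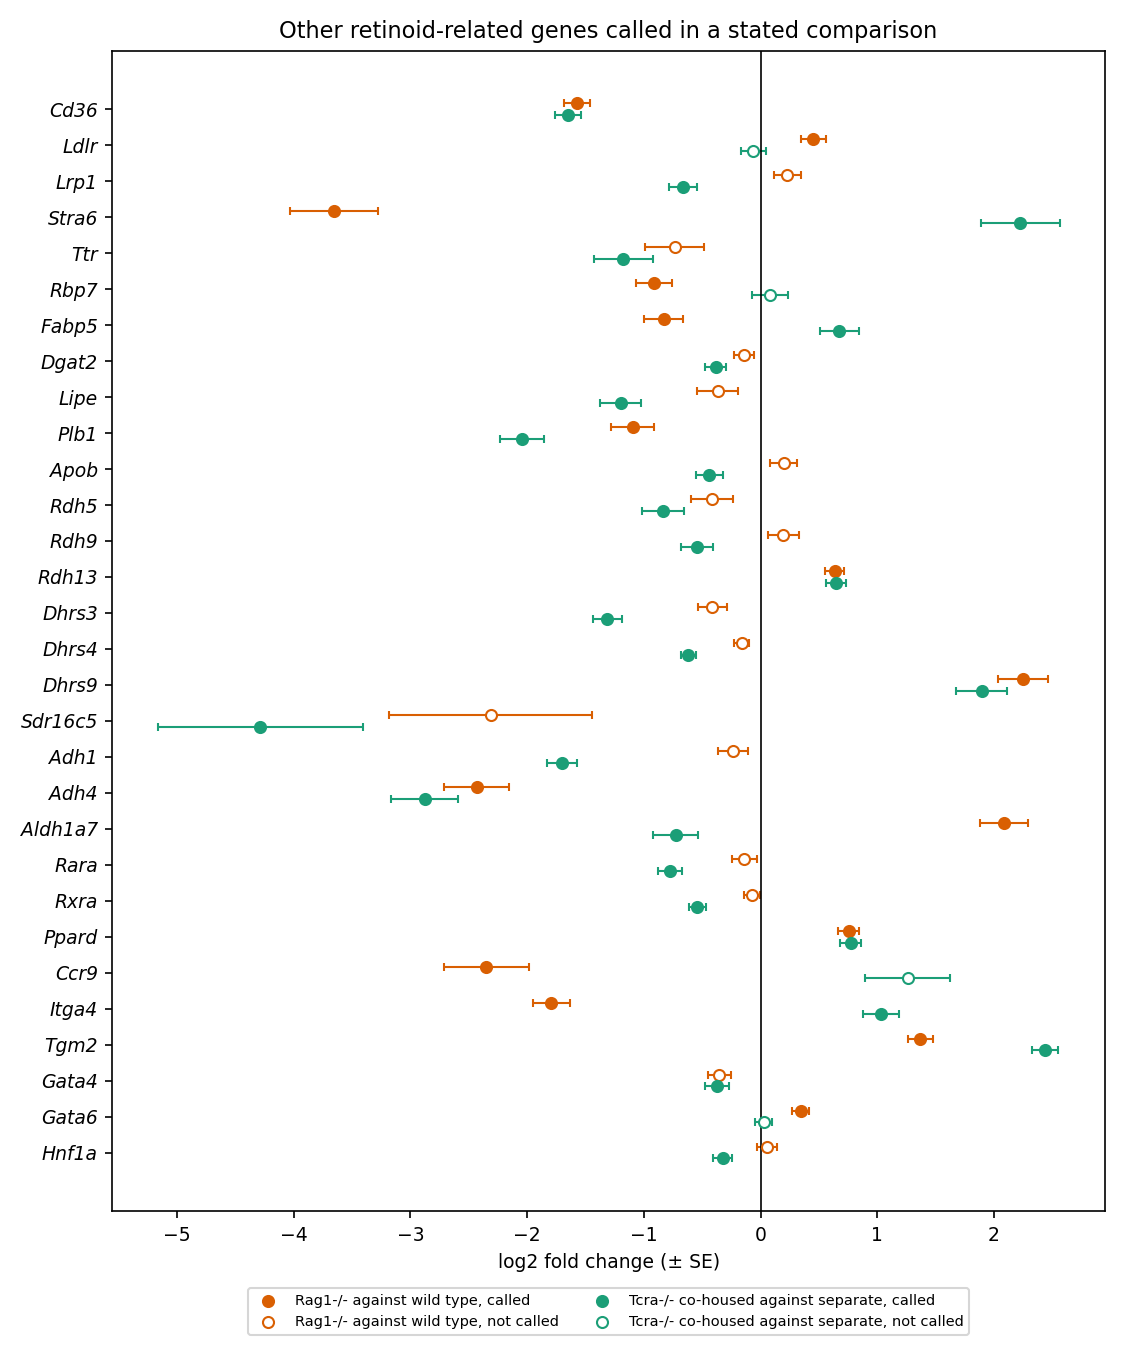
Log2 fold change (x axis, bars ± SE) of the 30 other retinoid-related genes called in at least 1 of the 2 comparisons, 3 mice per group, with filled points for calls at an adjusted p under 0.01. Stra6 points in opposite directions, at -3.66 and 2.23, whereas Tgm2 (1.37 and 2.44) and Adh4 (-2.43 and -2.88) keep 1 direction.

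Other epithelial markers were compared over the same groups. Of 8 pan-epithelial markers, which summed to 14890 to 17511 CPM over the 12 libraries, 2 fell in Rag1-/- mice and 3 with co-housing. Of all genes tested, 11.5% and 17.7% fell in these comparisons. Absorptive enterocyte markers summed to 30813 to 33344 CPM in wild type, 25409 to 29043 in Rag1-/-, 23379 to 29878 in co-housed and 38587 to 44190 in separately housed mice. The 6 markers of the proximal small intestine, none at 0 in any group, summed to 518 to 679, 329 to 383, 220 to 282 and 792 to 1178 CPM in the same order. By medians, the order of these proximal sums, and of the absorptive enterocyte sums, was that of the group means of Lrat, Bcmo1 and Retsat. Single markers did not all keep this order. Anpep, an absorptive marker, had means of 8627 CPM in co-housed, 8519 in Rag1-/-, 7788 in separately housed and 7263 in wild type mice. Of the 8 absorptive markers, 3 fell in Rag1-/- mice and 6 with co-housing, beside 11.5% and 17.7% of all genes. In both, 0 rose, beside 9.42% and 21.1%. In the proximal list, Slc40a1 had means of 293 CPM in Rag1-/- and 200 in co-housed mice, and Lct 13.7 and 14.4. Members of the proximal list did not all move one way. In Rag1-/- mice 3 of the 6 fell (Lct, Fabp1 and Slc2a2) and 1 rose (Slc40a1), beside 11.5% and 9.42% of all genes tested. With co-housing 4 fell (these 3 and Gata4) and 1 rose (Slc40a1), beside 17.7% and 21.1% of all genes. Lct, the lactase gene, made up most of the sum in wild type and separately housed mice, at a mean of 389 and 742 CPM, and fell by 4.83 in Rag1-/- mice (adjusted p = 0.000447) and by 5.70 with co-housing (adjusted p = 9.9e-05). Slc40a1, which encodes the iron exporter ferroportin, rose by 1.44 (adjusted p = 4.1e-07) and by 2.36 (adjusted p = 2.7e-09). Cybrd1 was not called, at 0.45 (adjusted p = 0.0893) and -0.07 (adjusted p = 0.776). The part of the cells these markers stand for in the retinoid values was not tested.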

How the data were processed

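Stranded mRNA libraries of 12 mouse terminal ileum samples, 3 mice in each of 4 groups, were sequenced by the study. The submitters' processing notes name bcl2fastq for base calls, TopHat2 (2.0.11) on Bowtie2 (2.2.2.0) with build mm9 for alignment, featureCounts (Subread 1.4.5-p1) for counting and DESeq2 (1.12.3) for the authors' own tests. The deposited table gives an unnormalized read count for each gene and library, all of them whole numbers, with gene length and exon positions per the file headers. How strand and multi-mapped reads were handled in counting, and with which annotation, is not stated in these sources.

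The 37061276 to 50581616 counts per library were filtered with filterByExpr of edgeR 4.0.16 (R 4.3.3), which kept 15866 of 23284 genes, and scaled with TMM factors of 0.926 to 1.07. All 12 libraries entered a robust quasi-likelihood fit with a term for each group, which left 8 residual degrees of freedom, and contrasts were tested two-sided, with Benjamini-Hochberg adjustment over all genes tested. Standard errors (SE) were taken as the absolute log2 fold change over the root of the F statistic, and 95% intervals use the t distribution of the same fit. CPM per kilobase uses the length of the table. The design text states Rag1-/- against wild type and co-housed against separately housed Tcra-/- mice at a false discovery rate of 1%. The other contrasts and the interaction were added to order the genes over the groups. Replicates are separate mice, numbered in accession order, and are not paired.

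The fit was tested on simulated data, drawn with the spread estimated from these libraries, so this does not check the model itself. For Rag1-/- against wild type it called 73.7% of genes changed by 1 on the log2 scale. Of genes changed by 2 it called 89.8%, and there were 0 false calls. A gene not called can therefore still have changed. Alternatives were DESeq2 1.42.0, its size factors in edgeR, library size alone, 2 other filters on low counts, a fit of the compared groups alone and leaving out each mouse. The 10 genes and the lists of other genes were chosen with earlier results of these data known, so their counts are descriptions. All 10 genes are named, and other genes are named from these lists, by likeness, or as stated after their values were seen. Promoter sequences are RefSeq's on GRCm38.p6, and shared 50-base windows were counted on GENCODE M21 transcripts.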

Additional observations from a re-analysis of the deposited data

Results flagged for a closer look

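The 2 groups of Tcra-/- mice, which carry the same deletion, differed in their change against the same wild type mice for 7 of the 10 genes, as tested by the direct contrast of co-housed with separately housed mice in edgeR, in which 38.8% of all genes tested were called. The difference in log2 fold change was -5.56 for Rdh7, -2.31 for Lrat, -2.07 for Bcmo1, -1.77 for Retsat, -1.34 for Rbp2, 1.74 for Rdh16 and 0.32 for Isx. Lrat, Bcmo1, Retsat and Rdh7 lay below wild type in the co-housed mice and above it in the separately housed mice. Rdh16 lay above wild type in both groups, by 2.95 and 1.21. Housing, cage and the background of the 2 groups cannot be told apart in this design.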

How the results depend on the processing

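Of the 70 values of the 10 genes in 7 contrasts, 57 kept their side of the threshold in each alternative run. Of these 57, 14 changed sign between alternatives, and none of those 14 was called. The 42 called values kept their sign. The 13 that crossed the threshold belonged to Aldh1a1, Rbp2, Bcmo1, Rdh7 and Isx. When 1 mouse was left out, the number of the 10 genes called was 5 to 7 in Rag1-/- against wild type, 7 to 8 in the housing comparison, and 3 to 6 for the interaction, with 3 reached without separately housed replicate 3. In the interaction, Rbp2 did not pass in 6 such fits and Bcmo1 in 8. Where an arm was left with 2 mice, the spread was shared with the other groups. No paired analysis was possible because the labels give no replicate numbers that join mice across groups. With 3 mice per group and 1 section of bulk tissue per mouse, low transcripts such as Cyp26b1 and Rdh7 in the lowest groups have wide intervals, and nothing here measures protein, retinoids or cell number.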
